A study of Mus musculus with 6 samples.

Results

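The surrogate light chain genes of the mouse are Igll1, Vpreb1, Vpreb2 and Vpreb3. These 4 genes were taken from the array annotation by symbol, out of 19938 genes measured. Each was represented by 1 probe set that carries no other symbol, so no choice among probe sets was needed.

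A surrogate light chain stands in for the immunoglobulin light chain before the light chain genes are rearranged. It is made of λ5, the product of Igll1, and a VpreB protein, and it pairs with a newly made µ heavy chain to form the pre-B cell receptor together with the signalling chains Igα and Igβ. Signals from this receptor drive a burst of division in large pre-B cells, after which Igll1 and Vpreb1 are silenced, and their transcripts are therefore used as marks of the pro-B and pre-B stages. Vpreb3 is related in sequence but is not a component of the conventional pre-B cell receptor, and its transcript persists in later B cells.

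The samples were 6 arrays in 3 groups of 2. Lymphomas of Em-Myc mice, in which the Myc oncogene is expressed in the B lineage, carried a short hairpin RNA against Ezh2, the catalytic subunit of polycomb repressive complex 2, either shEzh2.781 or shEzh2.556. The third group was splenic B cells of premalignant Em-Myc mice from 2 independent preparations, which also carry the Myc transgene and are called normal in 1 label field. The sources used here give no ages or strains, and do not say whether arrays of 1 hairpin came from separate mice, so p-values reflect only how far these samples spread, in part perhaps technically. Every lymphoma carried an Ezh2 hairpin, and lymphomas were enriched by depleting CD43-positive cells to at least 95% B220-positive GFP-positive cells while the premalignant cells were described as sorted. CD43 (Spn) is itself carried by pro-B and early pre-B cells; the Spn transcript was 8.60 and 8.60 in shEzh2.781 lymphomas and 8.65 and 8.82 in shEzh2.556 lymphomas, against 8.53 and 8.58 in premalignant cells (log2 signal, difference 0.11, limma adjusted p = 0.546). Malignancy, the hairpin and the way the cells were prepared therefore cannot be told apart in a comparison with premalignant cells. In bulk RNA, fewer pre-B cells and less RNA per pre-B cell cannot be told apart either.

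On the log2 scale the arrays had medians from 6.75 to 6.91 and first quartiles from 5.44 to 5.56. Cd79a, the Igα chain found throughout the B lineage, had a signal of 12.37 and 12.56 in shEzh2.781 lymphomas and 12.34 and 12.52 in shEzh2.556 lymphomas, against 12.53 and 12.42 in premalignant cells. Ezh2 fell by 1.55 in the lymphomas (log2, SE 0.10, limma adjusted p = 1.31e-06), with all 4 lymphoma arrays below both premalignant arrays, as for 16.1% of all genes. Myc differed by 0.14 (SE 0.09, adjusted p = 0.402), with all 4 lymphoma arrays above both premalignant arrays, as for 12.7% of all genes.

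Igll1, Vpreb1 and Vpreb2 all lie on chromosome 16 and Vpreb3 lies on chromosome 10. Igll1 and Vpreb1 are next to each other in the reference gene table, with Top3b the next protein-coding gene beyond Vpreb1, while Vpreb2 stands apart from them between Slc25a1 and Dgcr6. The sequence before the RefSeq start of Igll1 and Vpreb1 (GRCm38.p6) is shown because these neighbours changed in the same direction. Both are on the minus strand, at chr16:16863986-16864235 and chr16:16869256-16869505. Capitals mark every match, on either strand, to motif letters of factors that act in early B cells: CCCNNGGG (the core of the EBF1 site), CAGNTG (an E-box of the kind bound by E2A), TGGGAA (Ikaros), GAGGAA (PU.1) and TGTGGT (RUNX).
Igll1: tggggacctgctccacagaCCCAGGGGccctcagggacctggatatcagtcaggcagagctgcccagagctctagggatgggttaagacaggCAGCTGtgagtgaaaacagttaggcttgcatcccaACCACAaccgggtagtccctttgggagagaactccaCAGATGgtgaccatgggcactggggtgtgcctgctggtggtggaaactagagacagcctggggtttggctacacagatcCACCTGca
Vpreb1: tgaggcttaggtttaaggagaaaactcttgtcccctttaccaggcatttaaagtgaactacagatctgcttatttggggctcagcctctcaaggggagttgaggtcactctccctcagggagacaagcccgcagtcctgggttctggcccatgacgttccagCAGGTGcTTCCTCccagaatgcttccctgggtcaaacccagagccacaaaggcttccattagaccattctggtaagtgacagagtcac

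The Igll1 window held 1 EBF1 core, 3 E-boxes and 1 RUNX match. The Vpreb1 window held 1 E-box and 1 PU.1 match, separated by a single base. Over 27025 such windows of mouse genes, 11.7% held the EBF1 core, 44.5% the E-box, 21.5% the Ikaros letters, 23.1% the PU.1 letters and 14.2% the RUNX letters. The longer EBF1 motif CCCNNGGGA was in 5.53% of windows and in none of the 4 genes' windows. The Vpreb3 window held 1 E-box and 1 RUNX match. A match is a description of the letters, not a shown binding site.

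Vpreb1 and Vpreb2 are near-identical copies, and this extends in front of the coding sequence. A stretch of 103 bases, 102 of them identical, was found in both windows. It lay 106 to 4 bases before the Vpreb1 start and 250 to 148 bases before the Vpreb2 start. In windows of 300 bases, which run past the start, the stretch was 156 bases, 153 of them identical. The added bases run up to and past the Vpreb1 start, so they are not all upstream sequence of that gene. The 103 bases are therefore not the full extent of the likeness. The shared E-box and PU.1 letters stand in the following 30 bases of each gene, of which 29 are identical, at chr16:17980325-17980354 (plus strand) for Vpreb2 and chr16:16869322-16869351 (minus strand) for Vpreb1.
Vpreb2: ctttccagCAGGTGcTTCCTCccagaatgc
Vpreb1: cgttccagCAGGTGcTTCCTCccagaatgc

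The other pairs of windows shared at most 14 aligned bases. The Vpreb2 window also held a further E-box that overlaps an Ikaros match. Because the copies are so alike, transcripts of one may hybridise to probes of the other, and how much of either signal comes from the other gene was not tested.

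Igll1 was the surrogate light chain gene that differed most between lymphomas and premalignant cells. Its signal was 8.41 and 7.11 in shEzh2.781 lymphomas and 7.68 and 7.73 in shEzh2.556 lymphomas, against 11.26 and 11.79 in premalignant cells. All 4 lymphoma arrays lay below both premalignant arrays, and the gap between the highest lymphoma and the lowest premalignant array was 2.84. Over both hairpins Igll1 was 13.8-fold lower. On the log2 scale it fell by 3.79 (SE 0.27, 95% interval -4.38 to -3.20, limma adjusted p = 3.15e-06). This was the most negative difference among the 19938 genes; it ranked 3 with premalignant array 2 left out and 2 with shEzh2.781 array 2 left out, where Ear6, an eosinophil ribonuclease, ranked 1.

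The fall of Igll1 was of similar size with either hairpin. It fell by 3.76 in shEzh2.781 lymphomas (SE 0.31, adjusted p = 1.72e-05) and fell by 3.82 in shEzh2.556 lymphomas (SE 0.31, adjusted p = 7.52e-06), both against the same premalignant arrays. The difference between the hairpins was 0.06 (shEzh2.781 minus shEzh2.556, 95% interval -0.63 to 0.74, adjusted p = 0.912), an interval that reaches 1.67-fold. The shEzh2.781 arrays were 1.31 apart, with 1 above and 1 below both shEzh2.556 arrays, which were 0.05 apart. The sign of the difference between hairpins therefore rested on the array used. The difference was -0.59 without shEzh2.781 array 1 and 0.71 without shEzh2.781 array 2. Either fit leaves 1 shEzh2.781 array, so its p-value would hold nothing of the 1.31 gap and is not given.

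Vpreb1, which encodes the VpreB partner of λ5, changed in the same direction as its neighbour Igll1. Its signal was 5.73 and 5.90 in shEzh2.781 lymphomas and 6.18 and 6.06 in shEzh2.556 lymphomas, against 7.14 and 7.37 in premalignant cells. The groups did not overlap, with a gap of 0.97 between the highest lymphoma and the lowest premalignant array. Vpreb1 was 2.45-fold lower over both hairpins. It fell by 1.29 on the log2 scale (SE 0.11, 95% interval -1.53 to -1.06, adjusted p = 8.99e-06). It fell by 1.44 with shEzh2.781 (SE 0.12, adjusted p = 2.26e-05) and fell by 1.14 with shEzh2.556 (SE 0.12, adjusted p = 7.02e-05). Both shEzh2.781 arrays lay below both shEzh2.556 arrays, as was the case for 40.1% of all genes, and the difference between hairpins of -0.30 (95% interval -0.57 to -0.03) was not called after adjustment (adjusted p = 0.127). The lymphoma values lay below every array median and above every array's first quartile. Background was not measured here, and its part in the size of this fold was not tested.

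**Figure D1:**
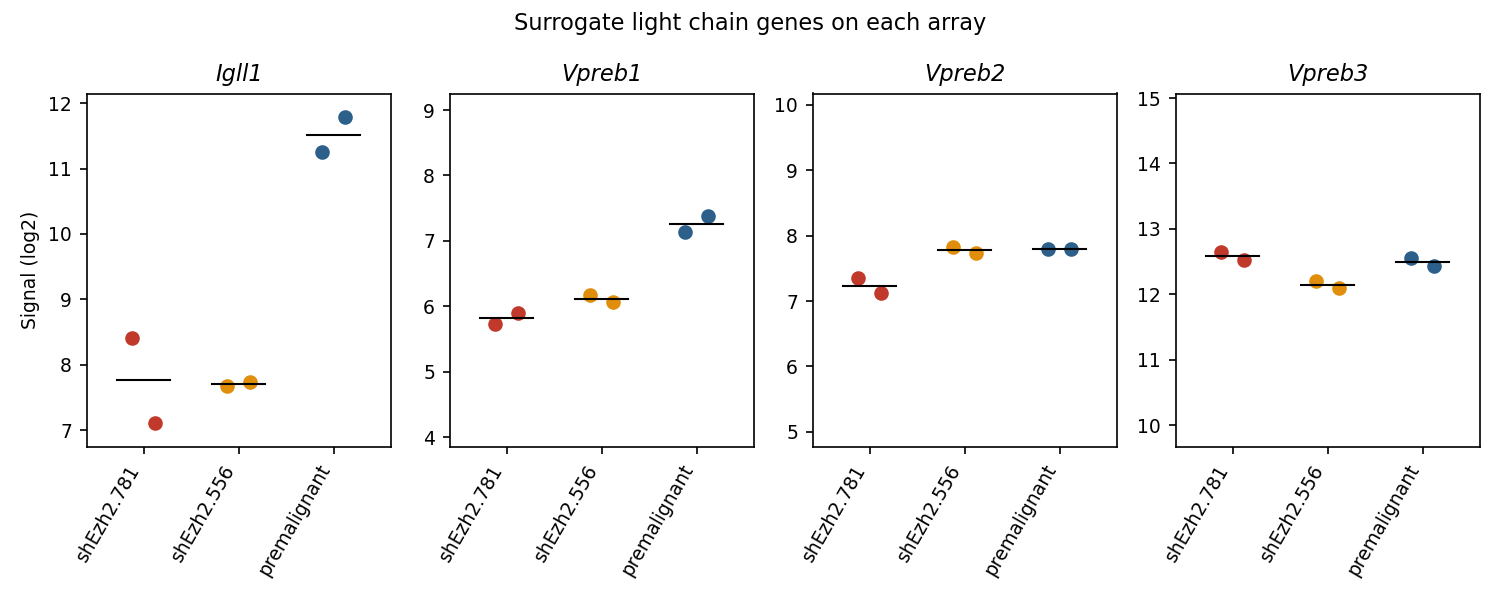
Signal (log2) of the 4 surrogate light chain genes on each of the 6 arrays, with 2 points a group and a line at the group mean. Each panel spans the same number of log2 units, so distances can be compared between panels while levels of different probe sets cannot. All lymphoma points of Igll1 and Vpreb1 lie below both premalignant points, Vpreb2 is low in shEzh2.781 lymphomas, and Vpreb3 is between 12.09 and 12.65 on every array.

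Vpreb2, the copy of Vpreb1, differed by hairpin. Its signal was 7.35 and 7.12 in shEzh2.781 lymphomas and 7.82 and 7.73 in shEzh2.556 lymphomas, against 7.79 and 7.80 in premalignant cells. The shEzh2.781 arrays were below all others, whereas the shEzh2.556 arrays lay on either side of the premalignant ones. Of all genes 40.1% had both shEzh2.781 arrays below both shEzh2.556 arrays. With shEzh2.781 Vpreb2 fell by 0.56 (SE 0.12, adjusted p = 0.00921), or 1.47-fold. With shEzh2.556 the difference from premalignant cells was -0.02 (95% interval -0.27 to 0.24, adjusted p = 0.932), and its sign turned after quantile normalization (0.07). The difference between hairpins was itself called, at -0.54 (shEzh2.781 minus shEzh2.556, SE 0.12, adjusted p = 0.0162). Over both hairpins the difference from premalignant cells was -0.29 (95% interval -0.51 to -0.06) and missed the threshold (adjusted p = 0.0853). The shEzh2.781 call ended without premalignant array 2 (difference -0.56) or shEzh2.781 array 2 (-0.45), and when limma was refitted to every probe set (adjusted p = 0.0606). The call between hairpins ended without shEzh2.781 array 2 (difference -0.43), shEzh2.556 array 1 (-0.50) or shEzh2.556 array 2 (-0.59), and over every probe set (adjusted p = 0.0967).

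Vpreb3 differed least from premalignant cells over both hairpins. Its signal was 12.65 and 12.52 in shEzh2.781 lymphomas and 12.20 and 12.09 in shEzh2.556 lymphomas, against 12.56 and 12.43 in premalignant cells. Lymphoma arrays overlapped the premalignant ones, with 2 below both, 1 above both and 1 between them. The difference over both hairpins was -0.13 (95% interval -0.34 to 0.09, adjusted p = 0.482), an interval whose lower end is 0.787 of the premalignant level. The difference was 0.09 with shEzh2.781 (95% interval -0.16 to 0.34, adjusted p = 0.741) and -0.34 with shEzh2.556 (95% interval -0.60 to -0.09, adjusted p = 0.0613). The shEzh2.556 difference passed the threshold after quantile normalization (0.0498), with dim genes left out (0.0422) and with a trended variance prior (0.00637). Between hairpins Vpreb3 was 1.35-fold higher in shEzh2.781 lymphomas, a difference of 0.43 (SE 0.12, adjusted p = 0.0376). That call ended when any 1 lymphoma array was left out (difference 0.37 to 0.50), after quantile normalization (adjusted p = 0.0852) and over every probe set (0.127).

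By this test 2 of the 4 genes, Igll1 and Vpreb1, fell in lymphomas over both hairpins, and none rose; of all genes 9.61% fell and 5.60% rose. The same 2 genes had all 4 lymphoma arrays below both premalignant arrays, as did 16.1% of all genes, and none had them above, against 12.7%. With shEzh2.781 the genes that fell were Igll1, Vpreb1 and Vpreb2 and none rose, against 6.24% and 4.60% of all genes. With shEzh2.556 Igll1 and Vpreb1 fell and none rose, against 11.4% and 6.80%. Between hairpins Vpreb3 was called higher and Vpreb2 lower in shEzh2.781 lymphomas, against 5.50% and 4.53% of all genes. The arrays of the hairpins did not overlap for these genes. Those of shEzh2.781 lay above for Vpreb3, as for 25.0% of all genes, and below for Vpreb2, as for 40.1%. With 4 genes these shares describe the family and test nothing about it. The median difference of all genes was 0.03 over both hairpins, -0.03 with shEzh2.781, 0.07 with shEzh2.556 and -0.07 between hairpins.

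The balance of calls over all genes moved with the scaling of the arrays. Over both hairpins 1117 genes were called higher and 1916 lower, which became 1682 and 1530 after median centring and 1591 and 1645 after quantile normalization. With shEzh2.781 the 917 higher and 1244 lower became 1733 and 841 after median centring, and with shEzh2.556 the 1355 and 2280 became 1913 and 1862 after quantile normalization. Between hairpins the 1097 higher and 903 lower became 2242 and 453 after median centring. Centring moved the median difference of all genes by 0.12 with shEzh2.781 and by 0.11 between hairpins, and changed no call of the 4 surrogate light chain genes.

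**Figure D2:**
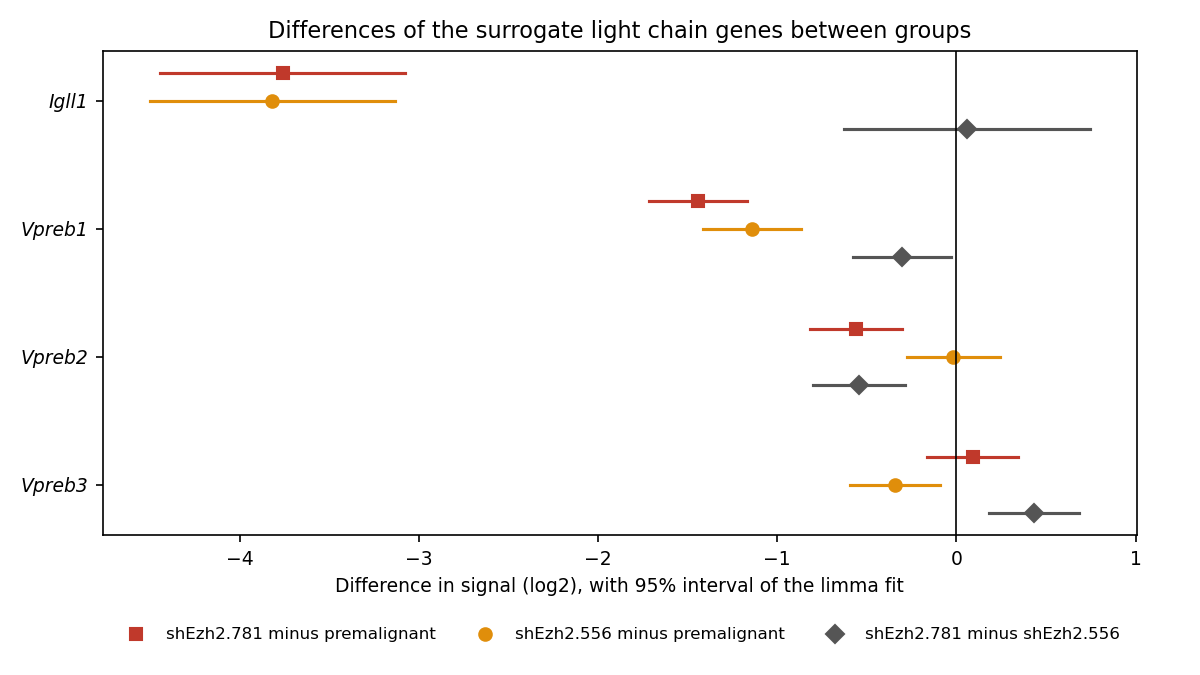
Differences in log2 signal of the 4 genes, with the 95% interval of the limma fit, for each hairpin against premalignant cells and for shEzh2.781 minus shEzh2.556. Intervals of Igll1 and Vpreb1 against premalignant cells lie wholly below 0 for both hairpins, while those of Vpreb2 and Vpreb3 lie nearer to 0 and differ by hairpin.

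**Figure D3:**
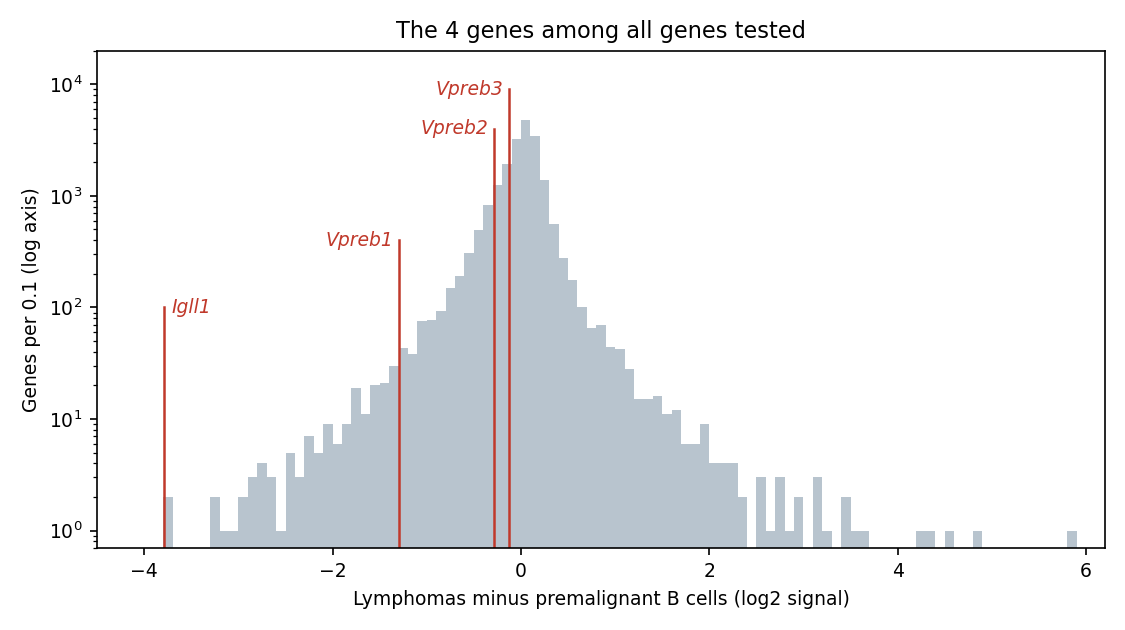
Distribution of the difference between lymphomas of both hairpins and premalignant cells over 19938 genes (log2 signal, number of genes per bin on a log axis). Vertical lines mark the 4 genes and their heights carry no value; Igll1 stands at -3.79, the lower end of all genes, and Vpreb1 at -1.29, while Vpreb2 and Vpreb3 stand within the central bulk.

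Of all genes 9.61% fell and 5.60% rose over both hairpins, and the counts of the following lists stand beside these shares. Other genes of the pro-B and pre-B stages were set beside the surrogate light chain. Of 12 such genes measured, 10 fell over both hairpins and 1, Cd93, rose, with a median difference of -0.85; without premalignant array 2 the numbers were 5 and 1. Cd93 was no longer called when array 1 of the premalignant cells, array 1 of shEzh2.781 or array 2 of shEzh2.556 was left out, with the 4 lymphomas as one group, or over every probe set, where 5 genes fell. Dntt, the terminal transferase that adds nucleotides at V(D)J joints, had 5.04 and 5.03 in shEzh2.781 lymphomas and 5.16 and 5.19 in shEzh2.556 lymphomas, against 7.38 and 8.11 in premalignant cells. It fell by 2.64 (SE 0.16, adjusted p = 9.10e-07). Enpep, which encodes the pre-B cell aminopeptidase BP-1, fell by 2.01 (log2, SE 0.11, adjusted p = 3.90e-07). The lymphoma values of Dntt lay below the first quartile of every array and those of Enpep, 5.70 to 5.85, just above it. Differences between hairpins at such low signals, -0.14 for Dntt and -0.05 for Enpep, therefore say little about these genes.

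Other stage genes differed between hairpins. The recombinase genes Rag1 and Rag2 differed from premalignant cells by -1.23 and -1.22 with shEzh2.781 and by -2.19 and -2.09 with shEzh2.556, all called, and the differences between hairpins of 0.96 and 0.88 were called (adjusted p = 0.00259 and 0.00134). Il7r, the receptor for the growth factor IL-7, had 11.72 and 11.30 in shEzh2.781 lymphomas and 9.66 and 9.58 in shEzh2.556 lymphomas, against 10.95 and 11.68 in premalignant cells. It was higher in shEzh2.781 than in shEzh2.556 lymphomas by 1.89 (adjusted p = 0.000244). The shEzh2.781 arrays thus overlapped premalignant cells for Il7r while lying 2.84 or more below them for Igll1. Of the 12 genes, 4 were higher and 1 lower in shEzh2.781 than in shEzh2.556 lymphomas, against 5.50% and 4.53% of all genes. Against premalignant cells 8 fell with shEzh2.781 and 8 with shEzh2.556, where 6.24% and 11.4% of all genes fell. Il7r and Bst1 were among the 10 that fell over both hairpins, which is the mean of the lymphoma groups. With shEzh2.781 they differed from premalignant cells by 0.20 and 0.27 (limma adjusted p = 0.672 and 0.673), and with shEzh2.556 by -1.69 and -2.27.

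The partners of the surrogate light chain in the pre-B cell receptor did not all change. Ighm, the µ heavy chain gene, had 7.71 and 8.94 in shEzh2.781 lymphomas and 8.39 and 7.67 in shEzh2.556 lymphomas, against 10.49 and 9.98 in premalignant cells, and fell by 2.06 (SE 0.29, adjusted p = 0.000445). The signalling chains Cd79a and Cd79b differed by -0.03 (adjusted p = 0.904) and 0.12 (adjusted p = 0.452). Of 16 receptor partners and proximal signalling genes measured, 6 fell and none rose over both hairpins, with a median of -0.16, and 3 fell without premalignant array 2. Among them Blk, a Src family kinase, fell by 1.03 (SE 0.12), Pik3ap1, the adaptor BCAP, by 1.04 (SE 0.10), and Blnk, the adaptor that links Syk to downstream enzymes, by 0.48 (SE 0.11), with adjusted p between 2.33e-05 and 0.0121. Blk was higher with shEzh2.781 than with shEzh2.556 by 0.94 (adjusted p = 0.00187). Blnk fell by 0.64 with shEzh2.781 (limma adjusted p = 0.00711), and its difference of -0.32 with shEzh2.556 was not called (adjusted p = 0.108). Of the 16 genes 5 fell with shEzh2.781 and 4 with shEzh2.556, against 6.24% and 11.4% of all genes. Over both hairpins 9.61% of all genes fell and 5.60% rose.

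Of 22 transcription factors of early B cells, 18 fell over both hairpins and none rose, with a median of -0.51; the number was 8 without premalignant array 2. With shEzh2.781 12 of the 22 fell and with shEzh2.556 16 fell, against 6.24% and 11.4% of all genes. Ebf1, Tcf3 and Pax5 are known to act on the surrogate light chain genes. Their part in the fall of Igll1 was not tested. Over both hairpins Ebf1 fell by 0.49 (SE 0.10, adjusted p = 0.00566), Tcf3, which encodes E2A, by 0.48 (SE 0.10, adjusted p = 0.00598), and Pax5 by 0.44 (SE 0.10, adjusted p = 0.00936). With shEzh2.781 Ebf1 and Tcf3 differed by -0.38 and -0.36 and were not called (limma adjusted p = 0.057 and 0.0751). Pax5 fell by 0.42 with this hairpin (adjusted p = 0.0333). With shEzh2.556 Ebf1 fell by 0.59, Tcf3 by 0.61 and Pax5 by 0.46 (adjusted p = 0.00398, 0.00333 and 0.0157). Lef1, a factor of pro-B and pre-B cells, fell by 3.09 (SE 0.11) and Sox4 fell by 2.08 (SE 0.17). Bach2, a repressor of plasma cell differentiation, fell by 1.17 (SE 0.10, adjusted p = 7.67e-06), and Spib, an Ets factor related to PU.1, fell by 0.82 (SE 0.10, adjusted p = 0.000173). Sox4 was higher in shEzh2.781 than in shEzh2.556 lymphomas by 1.49 (adjusted p = 0.00103), whereas the difference for Lef1 was -0.11 (adjusted p = 0.566).

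Genes of mature B cells did not fall against premalignant cells by this test, where 9.61% of all genes fell and 5.60% rose over both hairpins. Of 11 measured, 3 rose and none fell over both hairpins, with a median of 0.12, and 1 rose without premalignant array 2. The inhibitory coreceptor Cd22 rose by 0.55 (SE 0.10, adjusted p = 0.00309), the complement receptor Cr2 by 0.43 (SE 0.12, adjusted p = 0.0294) and the chemokine receptor Cxcr5 by 0.74 (SE 0.21, adjusted p = 0.0329), while Ms4a1, which encodes CD20, differed by -0.19 (adjusted p = 0.572). Cxcr5 had 6.41 and 7.24 in shEzh2.781 lymphomas and 7.46 and 8.10 in shEzh2.556 lymphomas, against 6.60 and 6.52 in premalignant cells. The shEzh2.781 arrays thus lay on either side of the premalignant ones (difference 0.26, adjusted p = 0.618), Cxcr5 was 1.22 higher with shEzh2.556 (adjusted p = 0.00458), and it was the 1 gene of the list called lower in shEzh2.781 than in shEzh2.556 lymphomas, at -0.96 (adjusted p = 0.0315). That call between hairpins ended after quantile normalization, over every probe set and in 4 of the 6 fits that left out 1 array. Cr2 differed from premalignant cells by 0.22 with shEzh2.781 (adjusted p = 0.423) and by 0.65 with shEzh2.556 (adjusted p = 0.00679). The Cr2 difference between hairpins of -0.43 was not called (adjusted p = 0.0671). The Cr2 signal was 5.56 to 6.44 over all arrays, below every array median, and the part of background in this rise was not tested. With dim genes left out, Cr2 among them, 2 of 10 mature B cell genes rose. Of 5 plasma cell genes 2 fell and none rose, and 0 fell without premalignant array 2.

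**Figure D4:**
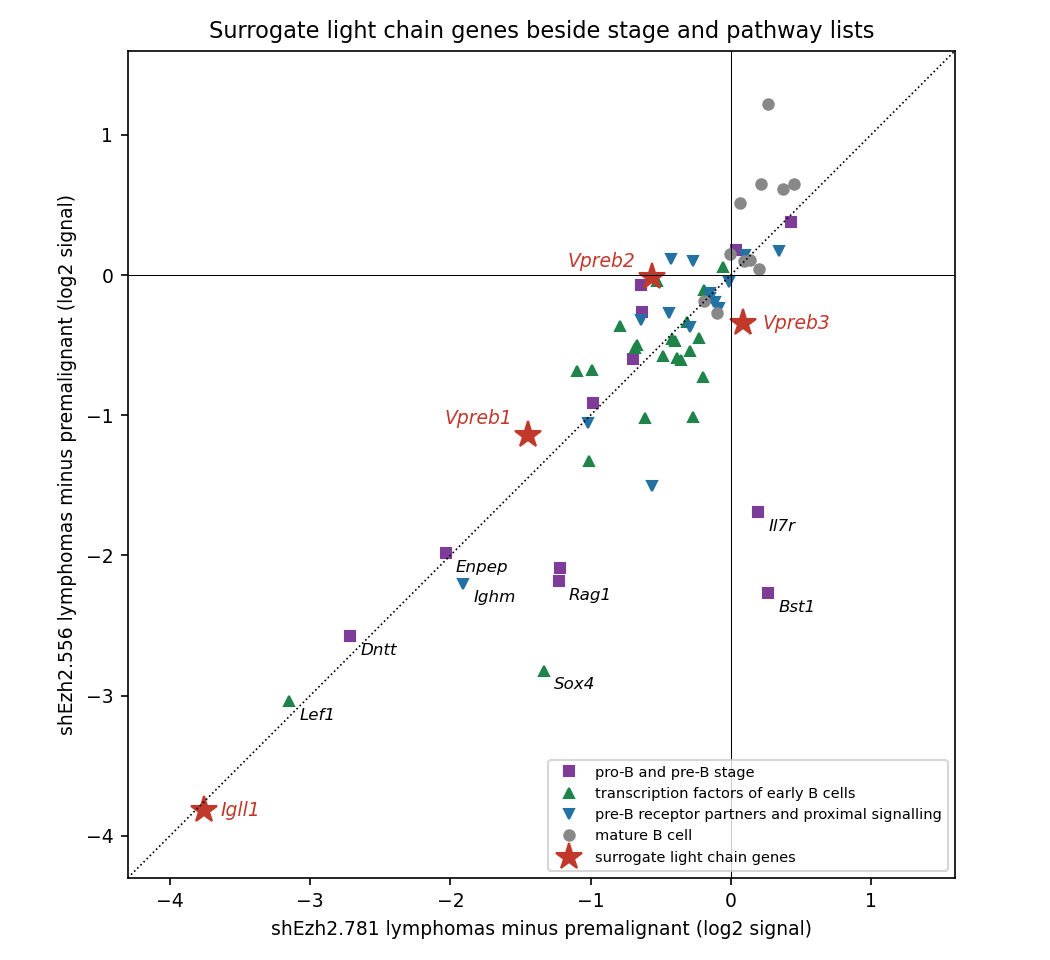
Each gene's log2 difference from premalignant cells in shEzh2.781 lymphomas (horizontal) and in shEzh2.556 lymphomas (vertical), for the surrogate light chain genes (stars) and the genes of 4 lists. Both axes share the premalignant arrays, so the spread along the dotted line of equal values is no measure of likeness; distance from that line shows a difference between hairpins, small for Igll1 and large for Il7r, Bst1 and Sox4.

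Many but not all markers of other blood cells moved in the same direction as Igll1 and Vpreb1, and their part in these results was not tested. All 3 eosinophil markers fell, with a mean log2 signal of 5.41 to 5.62 over the lymphoma arrays, against 8.61 to 8.64 in premalignant cells. All 8 neutrophil markers fell, with means of 8.14 and 8.73 in shEzh2.781 lymphomas and 7.05 and 6.46 in shEzh2.556 lymphomas, against 9.42 and 9.74 in premalignant cells. The 8 neutrophil markers were all higher in shEzh2.781 than in shEzh2.556 lymphomas, with a median difference of 1.71, where the difference of Igll1 was 0.06. Over every probe set 1 of the 8 was still called between hairpins. The 3 erythroid markers measured were all lower in shEzh2.781 than in shEzh2.556 lymphomas, with a median difference of -0.58, where the difference of Vpreb2 was -0.54. Their mean signals were 6.68 and 7.03 in shEzh2.781 lymphomas and 7.85 and 7.36 in shEzh2.556 lymphomas, against 7.75 and 7.91 in premalignant cells. Of the 3, 1 was called between hairpins after quantile normalization or median centring, and 0 without shEzh2.556 array 1 or over every probe set. Of 5 plasmacytoid dendritic cell markers 4 fell, as did 3 of 4 platelet, 3 of 4 NK cell, 2 of 5 T cell and 1 of 3 erythroid markers, and 1 of 5 macrophage markers rose. Of all genes 9.61% fell and 5.60% rose. The T cell markers that fell were Cd4 and Cd8a, while Cd3d and Cd3e differed by -0.13 and 0.12 (limma adjusted p = 0.435 and 0.644). The macrophage marker that rose was Csf1r, by 0.60 (adjusted p = 0.0211), and the median of that list was -0.03. No marker was at 0, since the scale has no zero.

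The genes whose pattern over the 6 arrays was closest to Igll1, by the root mean square difference of mean-centred log2 values, were Ear6 (0.38), Tspan6 (0.44), Lef1 (0.50), Tes (0.58) and Ppbp (0.59), where Igll1 itself spanned 4.68. Vpreb1, which changed in the same direction by less, was at 1.26. The closest to Vpreb1 were Plin3, Pllp, Calcrl, Vav3 and Slc41a2, at 0.09 to 0.10 against a range of 1.64. The closest to Vpreb2 were Maged1, Slc25a21, Ackr1, Dapk2 and Ache, at 0.05 to 0.08 against a range of 0.70, and to Vpreb3 Pramel12, Tada1, Ngdn, Tspan17 and Psmc6, at 0.03 to 0.04 against a range of 0.55. With 6 arrays in 3 groups, a close pattern is a description of group means.

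Genes next to the members on the chromosome showed other values. Top3b, a topoisomerase gene beside Vpreb1, differed by -0.36 over both hairpins (SE 0.11, adjusted p = 0.0558), and Spag6l and Ppm1f, the other measured neighbours of the pair, by -0.11 (adjusted p = 0.572) and 0.09 (adjusted p = 0.64). Beside Vpreb2, Slc25a1 differed by -0.05 (adjusted p = 0.786) and Dgcr6 by 0.10 (adjusted p = 0.687), while Prodh rose by 0.91 (SE 0.10, adjusted p = 6.95e-05). Gsc2, the fourth measured neighbour of Vpreb2, differed by 0.35 (adjusted p = 0.0509) over both hairpins and rose by 0.48 with shEzh2.556 (adjusted p = 0.0194). No measured protein-coding neighbour within 2 genes of Vpreb3 passed the test over both hairpins.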

How the data were processed

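Total RNA was labelled with biotin and hybridised to 1-colour Affymetrix Mouse Gene 1.0 ST arrays, per the labels' protocols. The deposited values are 1 log2 signal per probe set, normalized by the authors; the log2 scale was read from their range (2.30 to 14.2), and the background correction, normalization and summarization are not given in the sources used here. Of 35512 probe sets, 21789 had 1 gene symbol, 1621 several and 12102 none in the platform annotation. The probe set with the highest mean was used for the 999 genes with several, giving 19938 genes.

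All 3 groups were fitted together in limma 3.58.1 (R 4.3.3, no covariates, empirical Bayes moderation), with Benjamini-Hochberg adjustment over all 19938 genes; rose, fell and called mean an adjusted p below 0.05. The script was tested on simulated data. The members and the lists were chosen with earlier results of these data known. Of 109 listed genes 103 were measured. The rule for named genes took all 4 members, Ezh2 and Myc, allowed up to 4 genes a list by smallest p with preset stage genes and the nearest neighbours, and took the 5 nearest patterns; Bst1, Cd93 and Spn were named outside this rule, after their values were seen. Promoter windows came from RefSeq (GRCm38.p6), which held all 4 members. Alternatives were another normalization, centring, filter, feature set, variance prior, grouping, a replicate block and leaving out each array. The number of arrays limits the precision. Tables and plots used pandas 2.3.3 and matplotlib 3.10.9 under Python 3.11.15, with numpy 2.4.6.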

Additional observations from a re-analysis of the deposited data

Results flagged for a closer look

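Lymphomas of the 2 hairpins differed for 2 of the 4 genes by a test of the difference itself, between 2 arrays each that may not come from separate mice. Vpreb2 differed by -0.54 between shEzh2.781 and shEzh2.556 lymphomas (limma adjusted p = 0.0162), with both shEzh2.781 arrays lower, as for 40.1% of all genes. Vpreb3 differed by 0.43 (limma adjusted p = 0.0376), with both shEzh2.781 arrays higher, as for 25.0%. Of all genes 4.53% were called lower and 5.50% higher in shEzh2.781 than in shEzh2.556 lymphomas. The Vpreb2 call ended without shEzh2.781 array 2 or either shEzh2.556 array. The Vpreb3 call ended without any 1 of the 4 lymphoma arrays. A rule on single arrays compared the gap at either end with the whole range of the 4 lymphoma arrays, pooled over hairpins. It singled out no array for any of the 4 genes. The rule cannot flag a wide gap between the arrays of a hairpin, such as 1.31 for Igll1 with shEzh2.781. For 95% of all genes these 2 arrays differed by at most 0.37.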

How the results depend on the processing

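Igll1 and Vpreb1 kept their direction and their call against premalignant cells, over both hairpins and for each, under every alternative run. Over both hairpins Igll1 ranged from -4.11 to -3.46 and Vpreb1 from -1.41 to -1.18. Over all arrays left out in turn, the difference between hairpins ranged from -0.59 to 0.71 for Igll1, -0.65 to -0.43 for Vpreb2 and 0.37 to 0.50 for Vpreb3, and the difference from premalignant cells from -0.67 to -0.45 for Vpreb2 with shEzh2.781 and -0.061 to 0.028 with shEzh2.556. The last was also 0.073 after quantile normalization. With limma refitted to every probe set, Vpreb2 missed the threshold at unchanged values of -0.56 (shEzh2.781 against premalignant) and -0.54 (between hairpins). So did Vpreb3, at 0.43 between hairpins, a difference that was 0.35 and not called after quantile normalization. With shEzh2.556 Vpreb3 passed at -0.35 after quantile normalization and at -0.34 with dim genes left out or a trended prior. The 3033 genes called in lymphomas were 1091 with the 4 lymphomas as one group and 1721 to 2833 when an array was left out. Leaving out an array gave 1949 to 3669 in place of 3635 for shEzh2.556, 1103 to 2048 in place of 2161 for shEzh2.781, and 718 to 2085 in place of 2000 between hairpins; over every probe set the last 2 were 1247 and 317, where more features were tested. That fit also estimated the variance prior anew from every probe set, and the parts of the added features and the new prior were not told apart. The cause of the other changes was not tested. The list counts were rerun by choice after seeing the data, and with the 4 lymphomas as one group 5 of 12 stage genes, 9 of 22 factors and 2 of 16 receptor partners fell. Deviations of same-numbered arrays from their group means were little correlated over genes (r = -0.09, -0.12 and 0.06). This check cannot tell whether the arrays were paired by design. A replicate block left Igll1 at -3.79 and changed no call of the 4 genes. No gene had a further probe set to try. Background was not measured, so how far it limits low signals, such as Vpreb1 in lymphomas, was not tested.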
